A study of Mus musculus with 5 samples.

Results

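The respiratory chain and the ATP synthase are described here through the nuclear genes that encode their subunits, in cell lines grown from mouse thyroid tumours driven by BrafV600E. Members were taken by name alone, with no measured value: every listed gene whose symbol begins with Ndufa, Ndufb, Ndufc, Ndufs, Ndufv, Uqcr, Cox4 to Cox8 or Atp5, and Sdha to Sdhd, leaving out the Ndufaf assembly factors and names that end in -ps. The rule found 82 of 17923 listed genes, of which 38 belong by name to complex I, 4 to complex II, 8 to complex III, 15 to complex IV and 17 to the ATP synthase (complex V). A further 9 symbols that meet the rule (Cox6c2, Cox7b2, Cox8b, Cox8c, Ndufa11b, Ndufb1, Ndufb4b, Ndufb4c and Ndufs6b) were listed in no library, and no subunit encoded by mitochondrial DNA was listed.

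The study sequenced RNA of tumour lines with and without a deletion of Ctnnb1, the gene for β-catenin, to compare their expression profiles. Both BVE libraries carry BrafV600E, stem from cells at passage 20 of lines with the same name, and were labelled as grown without thyroid-stimulating hormone (TSH; BVE 1) and with it (BVE 2). The 3 BVE-Ctnnb1null libraries are labelled as carrying BrafV600E and the deletion of Ctnnb1 (the transcript is checked below): null 1 is line 4 at passage 8 without TSH, null 2 is line 4A at passage 11 and null 3 is line 5 at passage 7, with the TSH state of null 2 and null 3 not given. The general protocol names a medium with 4 mU/mL TSH and lines used after about 25 (BVE) and 20 (null) passages, which differ from the passages in the sample names. Each null library is 1 line (whether lines 4 and 4A share a tumour is not given), both BVE libraries may be 1 line, and the promoter that drives recombination is not given in the sources used here, so genotype, line and passage cannot be told apart, and p-values measure only the spread between these libraries. Total estimated counts ran from 29360002 to 30713079 per library. Values below stand in the order BVE 1, BVE 2 and null 1, null 2, null 3.

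The respiratory chain passes electrons from NADH (complex I) and succinate (complex II) through ubiquinone, complex III and cytochrome c to complex IV, which reduces oxygen, and the proton gradient made on the way turns the ATP synthase. Most subunits are nuclear genes that every tissue expresses and whose products are imported, while a few are exchanged for tissue- or oxygen-dependent isoforms such as the muscle forms Cox6a2 and Cox7a1, the testis form Cox6b2 and the low-oxygen forms Cox4i2 and Ndufa4l2. Nrf1, the Ets factor GABP and YY1 are known regulators of these genes.

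The labels were checked before the members. Ctnnb1 had 59.3 and 73.8 FPKM (fragments scaled to transcript length and to the library) in the BVE libraries and 125, 196 and 118 FPKM in the null libraries. All 3 libraries labelled BVE-Ctnnb1null thus lay above both BVE libraries, against the direction of a loss of the transcript (log2 fold change 0.55 ± 0.44 SE, edgeR adjusted p = 0.517), and the groups are named by their labels throughout. Of 13 thyroid follicular markers, Nkx2-1 had the highest mean over the libraries (9.21 and 15.02 and then 9.26, 34.8 and 0.26 FPKM), and their summed FPKM was 15.3 and 20.6 against 35.2, 68.5 and 4.86. Tg, thyroglobulin, did not exceed 0.86 FPKM, and between 3 and 6 of the 13 were not listed in a library, while Nkx2-1 and Pax8 were each above 10 FPKM in null 2. Pax8, a thyroid transcription factor, had 0.4 and 0.17 and then 18.1, 12.8 and 2.56 FPKM (log2 fold change 4.75 ± 1.09 SE, edgeR adjusted p = 0.180).

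The subunit genes were abundant in every library. Their median was 145 and 155 FPKM in the BVE libraries and 109, 126 and 139.7 FPKM in the null libraries, against 1.24, 1.03, 2.24, 2.68 and 2.70 FPKM for all listed genes. Summed over the 82 genes, the members took 2.56% and 2.71% of the FPKM in the BVE libraries (2.63% ± 0.102, SD, n = 2) and 2.62%, 2.48% and 2.66% in the null libraries (2.58% ± 0.0943, SD, n = 3). The groups overlap in this share, and the ratio of the means was 0.981, or 0.988 without Atp5b, the most abundant member. The summed FPKM itself was 18977 and 20877 in the BVE libraries and 15299, 14404 and 16533 in the null libraries, without overlap. The FPKM total by which it is divided was also lower in the null libraries (740786 and 771332, then 584696, 581385 and 622125). The overlap depends on the total: with the 10 most abundant genes taken out of it, the share was 3.01% and 3.24% in the BVE libraries and 2.87%, 2.75% and 2.97% in the null libraries, all below both BVE libraries (ratio 0.916).

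The complexes shared this amount differently from line to line. Complex I took 0.737% and 0.727% of FPKM in the BVE libraries and 0.740%, 0.692% and 0.851% in the null libraries. Complex IV took 0.641% and 0.692% and then 0.821%, 0.514% and 0.679%, so null 1 was the highest of all libraries and null 2 the lowest. The ATP synthase took 0.888% and 0.959% and then 0.778%, 0.937% and 0.782%, with null 1 and null 3 below both BVE libraries and null 2 between them. Complex II (0.0783% and 0.0807%, then 0.0673%, 0.0893% and 0.0840%) and complex III (0.217% and 0.248%, then 0.210%, 0.245% and 0.261%) varied as much among the null lines as between the groups. These are shares of a total that differs between libraries. In summed FPKM all null libraries lay below both BVE libraries for complex I, complex II and the ATP synthase. For complex III and complex IV the groups overlapped.

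**Figure D1:**
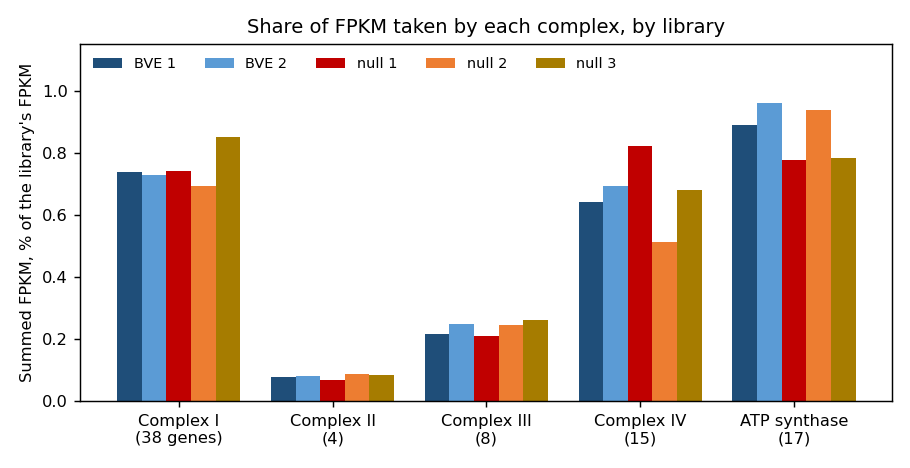
Summed FPKM of the subunit genes of each complex as a percentage of the FPKM of the library (bars, 1 per library; BVE 1 and 2 in blue, null 1 to 3 in red, orange and brown). Complex IV runs from 0.514% in null 2 to 0.821% in null 1, a wider range than between the BVE libraries.

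As a share of counts, which are not divided by transcript length, the same genes did not overlap between the groups. The members took 1.79% and 1.87% of the estimated counts in the BVE libraries against 1.30%, 1.34% and 1.37% in null 1, null 2 and null 3. In the edgeR fit on counts scaled by trimmed mean of M-values (TMM), 73 of the 81 tested members had a log2 fold change below 0 (null over BVE), where 40.7% of the 13240 tested genes did, and the median was -0.79 against 0.29 for all tested genes. With library totals alone 57 of 81 were below 0 (background 22.4%), and on the FPKM scale 61 (background 28.3%). By complex the median was -0.93 for I, -0.62 for II, -0.86 for III, -0.71 for IV and -1.11 for the ATP synthase.

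No member passed the test. Neither direction held a gene with an edgeR adjusted p under 0.05, among members or among all genes (0% of 13240), and the lowest adjusted p of a member was 0.180, for Atp5h. At an unadjusted p under 0.05, 21 members were lower (background 6.07% of all genes) and 0 higher (background 12.4%), a number that was 12 without BVE 1 (background 2.52%), 3 without BVE 2 (background 2.02%) and 34 without null 1 (background 11.5%). With library totals alone it was 4 lower (background 2.09%) and 1 higher (background 22.2%). The DESeq2 Wald test on the same counts called 14 members lower (background 3.68%) and 0 higher (background 8.41%) at an adjusted p under 0.05. In TMM-scaled CPM (counts scaled to the library total and the TMM factor), 47 members had all 3 null libraries below both BVE libraries (background 17.3%) and 0 had them above (background 22.6%). In FPKM these were 22 (background 7.22%) and 0 (background 35.9%). The scales thus disagree on single genes: of the 59 members that overlapped in FPKM, 25 did not in TMM-scaled CPM. Below, the order of libraries and any overlap are those of FPKM unless CPM is named, while fold changes come from TMM-scaled counts.

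The 7 core nuclear subunits of complex I, which together hold its flavin and iron-sulphur clusters, all had log2 fold changes below 0 with TMM, with a median of -1.07, and only Ndufv2 turned above 0 with library totals alone and on the FPKM scale. Ndufs3, an iron-sulphur protein fraction subunit at the base of the arm, had 125 and 154 and then 78.6, 88.7 and 99.7 FPKM (log2 fold change -1.25 ± 0.40 SE, edgeR adjusted p = 0.206). All 3 null libraries lay below both BVE libraries, and the gene was among the 14 DESeq2 calls, with an adjusted p of 0.0279.

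Other core subunits split the null lines. Ndufs8, a carrier of iron-sulphur clusters, had 266 and 272 FPKM in the BVE libraries, 307 FPKM in null 1 and only 98.5 and 104 FPKM in null 2 and null 3. Ndufv1, the flavin-binding NADH oxidase subunit, had the same shape at 189.8 and 163 and then 193, 79.9 and 94.2 FPKM, and so did Ndufs7, the subunit with the last iron-sulphur cluster, at 109.8 and 113 and then 146, 61.6 and 81.5 FPKM. In FPKM null 1 was thus above both BVE libraries and the other null lines below them for these 3 genes. Ndufs1, the largest subunit, had 35.8 and 41.6 and then 25.6, 55.7 and 28.5 FPKM, with null 2 the highest. Ndufv2, the partner of Ndufv1, had 80.3 and 86.5 and then 68.2, 74.8 and 129 FPKM, with null 3 the highest. The groups overlapped for all of Ndufs1, Ndufs7, Ndufs8, Ndufv1 and Ndufv2 in FPKM, whereas in TMM-scaled CPM all null libraries were below both BVE libraries for Ndufs8 and Ndufv1, and the log2 fold changes ran from -1.22 to -0.48.

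Besides the core subunits and Ndufa4l2, 30 members are named after complex I, including Ndufa4, which is described below. Of these 30, 27 had a log2 fold change below 0 (background 40.7% of all tested genes). Their median was -0.84 with TMM and -0.10 with the length offset described below. Ndufa9, an accessory subunit of the quinone-reducing arm, had 153 and 134 and then 71.4, 88.9 and 76.03 FPKM, with no overlap (log2 fold change -1.45 ± 0.38 SE, edgeR adjusted p = 0.191). Ndufs5 had 155 and 99.03 and then 47.7, 104 and 59.8 FPKM, and its value is uncertain because counting could split reads between the gene and its pseudogene, Ndufs5-ps, which was listed with 42 and 216 counts in the BVE libraries, 0 in null 1 and null 2 and 1838 in null 3. The sum of gene and pseudogene came to 2478 and 1792 counts and then 734, 1570 and 2744 counts. In these unscaled counts null 3 became the highest library, whereas Ndufs5 alone was below both BVE libraries there. TMM scaling lowers null 3 against BVE 1 (factors 1.22 and 0.843), so this order of the sums holds only without it. The most abundant complex I gene, Ndufb8, had 382 and 607 and then 525, 239 and 321 FPKM, and the groups overlapped.

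The remaining complex I members with a log2 fold change of -1 or less were Ndufa1 (-1.23), Ndufa10 (-1.25), Ndufa2 (-1.18), Ndufb5 (-1.17), Ndufb7 (-1.16), Ndufb11 (-1.16), Ndufb2 (-1.04) and Ndufa13 (-1.02), besides Ndufb8 (-1.03). Ndufb5 had 91.4 and 97.4 FPKM in the BVE libraries and 26.6, 87.6 and 79.7 FPKM in the null libraries, all below both BVE libraries and lowest in null 1. Only Ndufa6 (0.03), Ndufa4 (0.05) and Ndufc2 (0.23) had a value above 0 in this complex with TMM, and Ndufa6 turned below 0 with DESeq2. Ndufa4, which is named after complex I and known to be a subunit of complex IV, had 98.9 and 120.4 and then 85.5, 197 and 242 FPKM, and its direction turned below 0 with DESeq2, with other count filters and without any of BVE 1, null 2 or null 3.

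Complex II, which oxidises succinate and is also part of the tricarboxylic acid cycle, was led by Sdhb, its iron-sulphur subunit, at 311 and 307 FPKM in the BVE libraries and 167, 167 and 180.5 FPKM in the null libraries. The null libraries agreed closely and lay below both BVE libraries (log2 fold change -1.43 ± 0.37 SE, edgeR adjusted p = 0.191). The other subunits of the same enzyme overlapped between the groups in FPKM, whereas in TMM-scaled CPM only Sdhd did. Sdha, the flavoprotein, had 83.7 and 104 and then 72.5, 101 and 94.7 FPKM. Of the membrane anchors, Sdhc had 136 and 145 and then 123, 156 and 153 FPKM and Sdhd 49.2 and 67.4 and then 31.9, 95.3 and 94.2 FPKM. The directions of Sdhc (-0.56) and Sdhd (-0.29) turned above 0 with library totals alone and on the FPKM scale.

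Complex III members all had log2 fold changes below 0, from -1.14 for Uqcrh to -0.49 for Uqcr10, which turned above 0 with library totals alone and with the length offset described below. Uqcrc2, a core subunit of the matrix side, had 152 and 145 and then 86.9, 114 and 110.5 FPKM, and its partner Uqcrc1 286 and 265 and then 260.4, 181 and 139.8 FPKM. For both, all null libraries lay below both BVE libraries (log2 fold changes -1.11 and -1.07). Uqcrh, the hinge protein for cytochrome c1 and the most abundant member, had 240.0 and 540.3 FPKM in the BVE libraries and 120.3, 392 and 324 FPKM in the null libraries, of which null 2 and null 3 lay between the BVE libraries. Uqcrfs1, the Rieske iron-sulphur protein, had 96.4 and 107 and then 97.1, 85.5 and 93.2 FPKM, with null 1 between the BVE libraries in FPKM and below both in TMM-scaled CPM.

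Complex IV, the oxygen-reducing enzyme, held members that were nearly level in FPKM and members that differed widely. Cox4i1, the ubiquitous form of subunit 4 and the most abundant gene of the complex, had 1500.3 and 1819 FPKM in the BVE libraries and 1067, 596 and 791 FPKM in the null libraries. All 3 null libraries were lower, null 2 most of all, at a log2 fold change of -1.60 ± 0.45 SE (edgeR adjusted p = 0.192, DESeq2 adjusted p = 0.0229). Cox5a, which sits against the core, had 150.2 and 135 and then 151, 149 and 143 FPKM, nearly level across all 5 libraries. In TMM-scaled CPM it had 123 and 126 and then 95.5, 83.6 and 80.9, without overlap (log2 fold change -0.52). Cox5b, its zinc-binding neighbour, had 383 and 429 and then 342, 303 and 211 FPKM and did not overlap (log2 fold change -1.08). Cox7a2l, a factor that joins complexes III and IV into supercomplexes, had 726 and 651 and then 393, 323 and 748 FPKM, with null 3 above both BVE libraries and the other null lines below. In TMM-scaled CPM all null libraries lay below both BVE libraries, at 942 and 968 and then 394, 288 and 669.5 (log2 fold change -1.08).

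Small subunits of complex IV separated the null lines from each other. Cox8a had 508 and 621 FPKM in the BVE libraries and 1094 FPKM in null 1, against 241 and 338 FPKM in null 2 and null 3. Cox6c went the other way, from 95.5 and 101 FPKM in the BVE libraries to 52.9, 169 and 509 FPKM, with null 3 alone far above the rest. Cox7b had 14.1 and 20.4 FPKM, 14.8 FPKM in null 1 and 63.8 and 78.7 FPKM in null 2 and null 3. Its log2 fold change of 0.96 ± 0.73 SE was the highest among the 77 tested members outside the alternative isoforms (edgeR adjusted p = 0.493). Null 1 stayed at the BVE level in FPKM for Cox7b and below it for Cox6c, whereas it was the highest library for Cox8a.

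The members that differed most between libraries were alternative isoforms. Cox6b2, the testis form of subunit 6B, had 6 and 4 counts in the BVE libraries, 1389 counts in null 1, 1 count in null 2 and 31 counts in null 3. In FPKM this was 0.37 and 0.25 and then 90.6, 0.07 and 2.00, so null 1 stood alone, with a share of counts 284-fold that of the pooled BVE libraries. The fitted log2 fold change of 6.11 ± 2.79 SE rests on that library (edgeR adjusted p = 0.294), and without null 1 the gene was too low to be tested. Even there Cox6b1, the ubiquitous form, remained the main one at 481 FPKM, and Cox6b2 made up 15.8% of the FPKM of the pair in null 1, against 0.117%, 0.0439%, 0.0178% and 0.659% in BVE 1, BVE 2, null 2 and null 3.

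The muscle forms were low throughout. Cox6a2 had 343 counts in BVE 1 and 39 in BVE 2, 0 in null 1, 2 in null 2 and 91 in null 3, where a count of 0 allows up to 3 counts, or 0.1002 CPM (counting error only). Null 3 lay between the BVE libraries, and Cox6a2 made up at most 2.13% of the FPKM it shares with Cox6a1, which had 784 and 697 and then 925, 388 and 653 FPKM. Cox7a1 had 6.73 and 7.28 and then 3.21, 2.15 and 3.54 FPKM, with all null libraries below both BVE libraries (log2 fold change -1.82 ± 0.78 SE, edgeR adjusted p = 0.274), while its ubiquitous partner Cox7a2 had 97.3 and 156 and then 51.8, 164 and 149 FPKM. The summed FPKM of 10 striated muscle markers was 0.34 and 0.98 in the BVE libraries and 1.86, 0.63 and 1.40 in the null libraries, led by Acta1 at no more than 1.06 FPKM, and Ckm, the muscle creatine kinase, did not exceed 0.16 FPKM.

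The low-oxygen forms were near the limit of detection. Cox4i2 had 2 and 4 counts in the BVE libraries and 8, 2 and 2 counts in the null libraries, and was the only member too low to be tested. Ndufa4l2 had 22 and 2 counts and then 4, 1 and 18 counts, so the spread within each group exceeded that between them. No Cox7b2, Cox8b or Cox8c transcript was listed. The 3 genes for the identical mature c-subunit of the ATP synthase also differed in their balance: Atp5g2 supplied 64.4% and 68.7% of their FPKM in the BVE libraries and 60.9%, 44.0% and 64.7% in the null libraries, and Atp5g3 17.3% and 16.6% and then 26.7%, 36.9% and 22.8%. Atp5g3 was thus above the BVE share in all 3 null libraries.

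**Figure D2:**
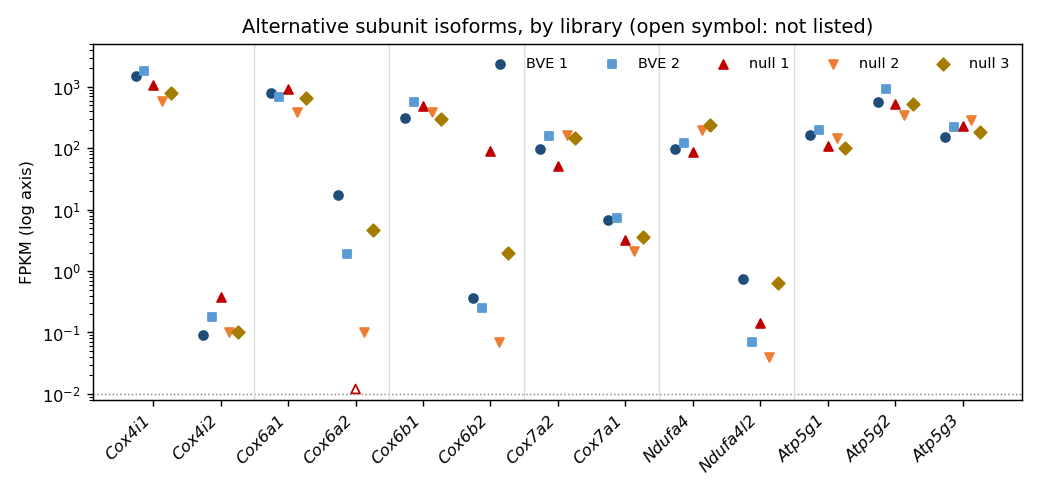
FPKM (log axis) of subunit isoforms in each library (symbols as in the key; an open symbol marks a gene not listed in that library). Cox6b2 stands apart in null 1 at 90.6 FPKM, and every ubiquitous partner exceeds its alternative form in all libraries.

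With TMM the ATP synthase had the lowest median of the complexes (-1.11), which complex III had without null 3 (-1.03 against -0.98) and with a replicate block (-1.01 against -0.97), and complex II with the length offset (-0.40 against -0.39). With TMM, 8 of its 17 tested members were lower at an unadjusted p under 0.05 (background 6.07% of all genes). Among all 81 tested members the number was 21. In the catalytic F1 head, Atp5b, the β-subunit and the most abundant member of all, had 1549 and 1286 FPKM in the BVE libraries and 819, 1382 and 762 FPKM in the null libraries, with null 2 between the BVE libraries. In TMM-scaled CPM all null libraries lay below both BVE libraries, at 3481 and 3314 and then 1421, 2128 and 1180.5 (log2 fold change -1.11). Atp5a1, the α-subunit that alternates with it in the ring, had 995 and 1065 and then 533, 620.3 and 418 FPKM. All 3 null libraries lay below both BVE libraries, at a log2 fold change of -1.56 ± 0.38 SE (edgeR adjusted p = 0.186). Atp5e, the small subunit of the central stalk, also had all null libraries below both BVE libraries, at 225 and 275 and then 116, 147 and 127 FPKM (log2 fold change -1.55). Atp5c1, the rotating γ-subunit, had 374 and 407 and then 214, 439.8 and 521 FPKM, and Atp5d, also of the central stalk, 538 and 473 and then 735, 294 and 241 FPKM. Null 1 was the lowest library for Atp5c1 and the highest for Atp5d, so members of this head were not ordered alike across the libraries.

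The peripheral stalk, which holds the head still, included the lowest fold change of the enzyme. Atp5h, its d-subunit, had 593 and 891 FPKM in the BVE libraries and 289, 268 and 367 FPKM in the null libraries. The highest null library was below the lower BVE library, and the log2 fold change of -1.88 ± 0.43 SE (edgeR adjusted p = 0.180, DESeq2 adjusted p = 0.0028) was the lowest among members outside the alternative isoforms. Atp5o, the subunit that ties the stalk to the head, had 391 and 407 and then 208, 225 and 269 FPKM, also without overlap (log2 fold change -1.36). Atp5pb, the b-subunit, had 109 and 93.9 and then 63.6, 186 and 195 FPKM (log2 fold change -0.06, above 0 on the FPKM scale) and Atp5j, the F6 subunit, 67.1 and 46.5 and then 33.6, 149 and 139.7 FPKM. Both were lowest in null 1 and above both BVE libraries in null 2 and null 3.

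Of the c-ring genes, Atp5g1 (162 and 198 and then 109, 149 and 101 FPKM) and Atp5g2 (569 and 922 and then 534, 342 and 526 FPKM) had all null libraries below both BVE libraries, with log2 fold changes of -1.19 and -1.27. Atp5g3 had 153 and 222 and then 234, 287 and 186 FPKM and a log2 fold change of -0.27, which turned above 0 on the FPKM scale, with library totals alone and with the length offset described below. Among small membrane subunits, Atp5l, subunit g, had 337 and 406 and then 239.8, 224 and 251 FPKM with no overlap (log2 fold change -1.23). Atp5mpl had 109.6 and 165 and then 26.3, 123 and 71.7 FPKM, lowest in null 1 (log2 fold change -1.54 ± 0.66 SE). Atp5md had 127 and 96.1 and then 126, 231 and 371 FPKM, and null 2 and null 3 exceeded both BVE libraries.

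**Figure D3:**
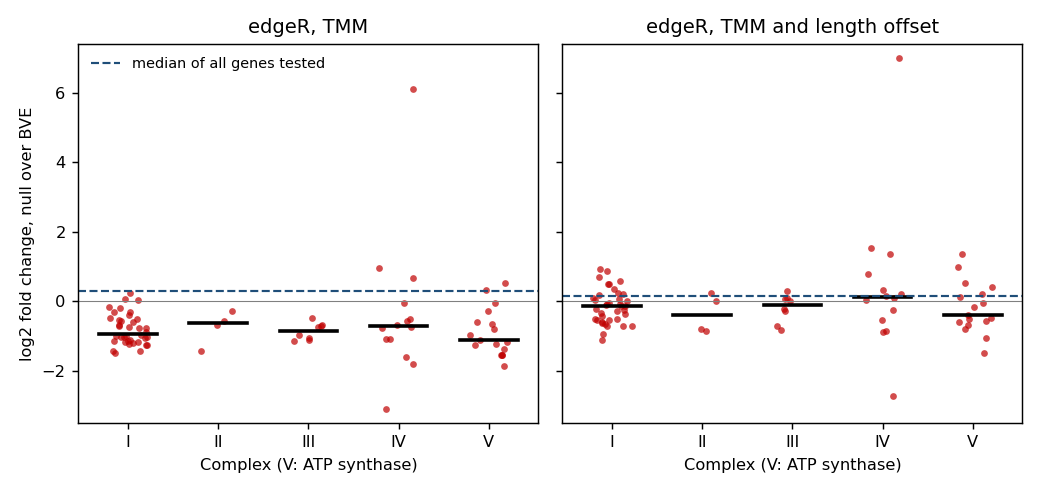
Log2 fold change (null over BVE, edgeR) of each of the 81 tested members (points, by complex), with the median of the complex (black bar) and of all tested genes (dashed line), under TMM scaling and with an added offset for transcript length. The bars lie between -1.11 and -0.62 at left and between -0.40 and 0.12 at right.

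Promoter sequence is shown for 3 of the members described above, as the 250 bases before the RefSeq start (GRCm38.p6), with any match to 3 searched motifs in capitals. The motifs were TGCGCATG for NRF1, CCGGAAGT for the ETS family that includes GABP and AAGATGGC for YY1, each read on both strands. Cox5b holds the NRF1 letters 52 bases before the start, at chr1:36691237-36691486 on the plus strand; Atp5h, the widely expressed member with the lowest fold change, holds the ETS letters on the other strand 39 bases before the start, at chr11:115419920-115420169 on the minus strand; and Cox6b2, which differed most between lines, holds none of the 3, at chr7:4753095-4753344 on the minus strand.
Cox5b: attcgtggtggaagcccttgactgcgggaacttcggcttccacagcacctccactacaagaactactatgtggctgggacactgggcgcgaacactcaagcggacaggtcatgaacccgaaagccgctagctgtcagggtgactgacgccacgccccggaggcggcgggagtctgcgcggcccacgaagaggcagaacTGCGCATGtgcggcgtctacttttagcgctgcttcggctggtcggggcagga
Atp5h: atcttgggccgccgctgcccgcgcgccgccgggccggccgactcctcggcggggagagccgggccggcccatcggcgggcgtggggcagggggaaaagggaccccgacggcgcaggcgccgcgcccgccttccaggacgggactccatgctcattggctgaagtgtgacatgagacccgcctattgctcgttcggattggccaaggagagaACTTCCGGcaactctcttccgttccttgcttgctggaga
Cox6b2: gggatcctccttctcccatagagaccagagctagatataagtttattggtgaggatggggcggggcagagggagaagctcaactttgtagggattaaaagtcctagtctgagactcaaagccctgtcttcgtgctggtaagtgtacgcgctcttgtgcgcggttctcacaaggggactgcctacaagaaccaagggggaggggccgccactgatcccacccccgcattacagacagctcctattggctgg
The Cox5b window holds 22 CpG dinucleotides and the Atp5h window 29, against 8 in the window of Cox6b2. Of the 82 members, 67 matched the RefSeq promoter table. Windows that also take in the 50 bases after the start were searched, and the background is all 27025 genes with such windows, whether or not they were listed in these libraries. The NRF1 letters occurred in 8 members (11.9%, against 2.42% of these genes), the ETS letters in 5 (7.46% against 4.31%) and the YY1 letters in 10 (14.9% against 3.19%). The NRF1 members were Atp5g2, Atp5l, Cox5b, Ndufa6, Ndufa8, Ndufb6, Ndufb8 and Uqcrc1, and the ETS members Atp5h, Cox8a, Ndufs3, Uqcr11 and Uqcrh. At least 1 of the motifs occurred in 22 of the 67 members, and the share of all genes with any of them was not computed. A match describes letters and not a bound site.

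Transcript length moved with the result. The tested members had a median length of 657 bases against 2789.5 bases for all tested genes. Among the 5 length classes the median log2 fold change of the other genes was ordered by length, from -0.89 at 600 bases or fewer to -0.45 at 601 to 1000, -0.28 at 1001 to 2000, 0.27 at 2001 to 4000 and 1.08 above 4000 bases. The members had -0.76 (37 genes), -1.01 (22), -1.05 (18) and -0.68 (4) in the first 4 classes and none in the last. The shortest members thus sat slightly above other genes of their length, and the members of the next 3 classes sat below theirs.

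With a smooth trend of each library on length taken out as an offset, an alternative chosen after seeing the data, the median was -0.14 for the members and 0.14 for all tested genes. In that fit 47 members were below 0 and 34 above, and at an unadjusted p under 0.05, 4 were lower (background 5.69%) and 1 higher (background 7.36%). With GC content added to the offset, the members had -0.13 and all genes 0.12, and 5 members were lower (background 6.89%) and 1 higher (background 7.99%). The distance between the medians of members and of all genes was -1.09 with TMM, -1.13 with library totals alone, -0.94 on the FPKM scale, -0.28 with the length offset and -0.25 with length and GC. Complex IV turned to a median of 0.12 with length and 0.24 with length and GC, whereas the other complexes stayed below 0 in both.

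**Figure D4:**
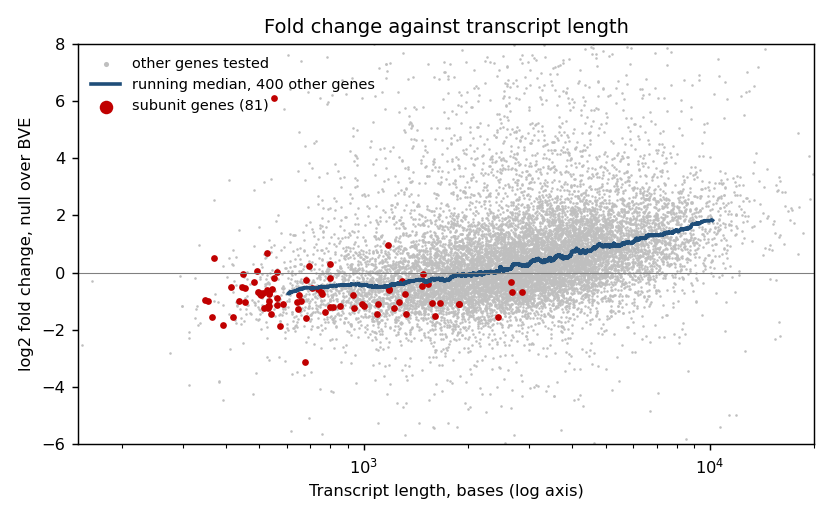
Log2 fold change (null over BVE, edgeR with TMM) against transcript length (log axis) for other tested genes (grey), their running median over 400 genes (blue) and the 81 tested members (red). The median of the other genes climbs from -0.89 in the shortest class to 1.08 in the longest, and most members lie at the short end.

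Base composition moved with the differences between null lines. The log2 ratio of null 1 to null 2 had a Pearson r of 0.43 with transcript GC content across 13057 tested genes and of 0.51 across the 81 members, which share libraries and are not independent. Against null 3 the r was 0.40 across all genes and 0.43 across the members. By 5 classes of GC content of equal size, the median ratio of null 1 to null 2 ran from -0.90 to 1.03 over all genes, and from -0.75 (8 members) to 1.04 (14 members) over the members. Single members departed from this order, such as Atp5j, at 56.0% GC and lowest in null 1.

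**Figure D5:**
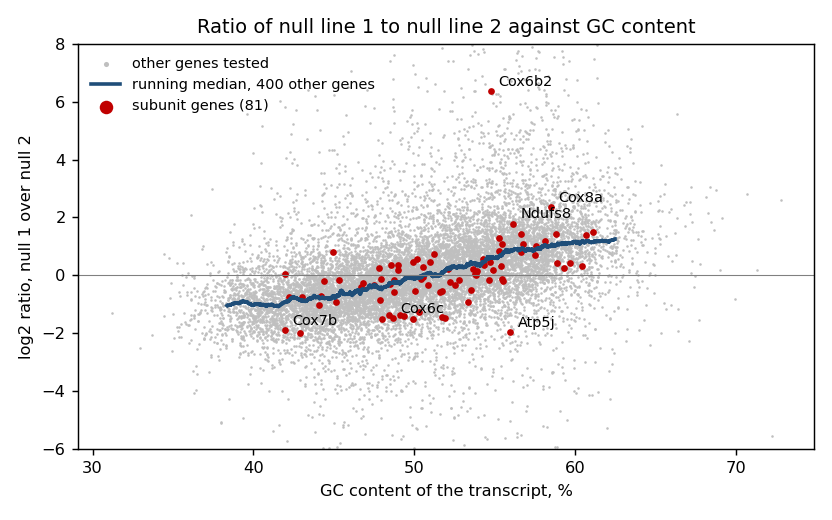
Log2 ratio of null 1 to null 2 (TMM-scaled CPM plus 0.5) against transcript GC content for other tested genes (grey), their running median over 400 genes (blue) and the 81 tested members (red). The median of the members rises from -0.75 in the lowest GC class to 1.04 in the highest, with Cox6b2 far above the running median and Atp5j below it.

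Each library was also read alone, with no test. BVE 2, labelled with TSH, exceeded BVE 1, labelled without it, in 61 of 81 members (background 47.7% of all tested genes), at a median log2 ratio of 0.28 against -0.01 for all tested genes. Over all tested genes, members included, the median of this ratio also fell with transcript length. It was 0.28 at 600 bases or fewer, 0.13 at 601 to 1000 and -0.10 above 4000 bases. The part of length in the member ratio was not tested. Atp5k had 66.4 FPKM in BVE 1 and 179.9 FPKM in BVE 2 and Cox6a2 17.1 and 1.92 FPKM, the members that differed most, and 5 members were 2-fold or more higher (background 4.90%) and 2 lower (background 5.05%). Against the BVE mean the member median was -0.99 in null 1, -0.91 in null 2 and -0.78 in null 3, where all genes had 0.12, 0.04 and 0.14. Members 2-fold or more lower numbered 40 in null 1 (background 18.3%), 39 in null 2 (background 18.7%) and 35 in null 3 (background 17.8%), and those higher 1, 1 and 3 (backgrounds 25.1%, 24.4% and 25.7%). The 3 contrasts share the BVE libraries. The member farthest from the BVE mean, apart from the alternative isoforms, was Atp5mpl in null 1 (log2 ratio -2.75), Cox4i1 in null 2 (-2.11) and Ndufs8 in null 3 (-2.01).

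Other lists of the pathway held no gene with an edgeR adjusted p under 0.05, and their medians with TMM ran from -0.88 to -0.03, against 0.29 for all tested genes. On the FPKM scale, where all tested genes had 0.61, the medians of 4 lists were above 0: assembly factors of complexes II to IV (0.12), ATP synthase assembly factors (0.07), the tricarboxylic acid cycle (0.21) and regulators of mitochondrial biogenesis (0.44). Complex I assembly factors (-0.39) and carriers (-0.13) remained below 0. Of 19 tested complex I assembly factors, 17 were below 0 with TMM (median -0.88, background 40.7% of all tested genes), 4 at an unadjusted p under 0.05 (background 6.07%) and 3 by DESeq2 (background 3.68%). They included Foxred1, with 30.5 and 22.96 and then 9.82, 11.3 and 16.5 FPKM (log2 fold change -1.67), and Nubpl, which delivers iron-sulphur clusters, with 21.1 and 20.1 and then 5.34, 13.7 and 11.8 FPKM (-1.61). The 34 assembly factors of complexes II to IV had a median of -0.40, with 4 lower at an unadjusted p under 0.05 (background 6.07%) and 2 by DESeq2 (background 3.68%). In FPKM 6 of them lay higher without overlap (background 35.9%) and 4 lower (background 7.22%). The DESeq2 calls were Uqcc2, an early complex III factor, at 486 and 440.3 and then 250.4, 273 and 234 FPKM, and Higd1a at 20.04 and 45.01 and then 8.44, 8.80 and 18.2 FPKM.

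Among 5 ATP synthase assembly factors (median -0.48, none called by DESeq2), Fmc1 had 18.6 and 30.6 and then 13.9, 14.8 and 8.38 FPKM and Tmem70, which helps to build the c-ring, 6.08 and 4.49 and then 7.12, 25.5 and 26.5 FPKM. The 11 carriers of electrons and nucleotides had a median of -0.55, and Etfb, which feeds electrons from fatty acid oxidation, was called lower by DESeq2 (adjusted p = 0.00035) at 254 and 239.8 and then 90.6, 125 and 91.6 FPKM. Cyc1, cytochrome c1, had 353 and 195 and then 206, 123 and 233 FPKM, which overlapped in FPKM, while in TMM-scaled CPM all null libraries were below both BVE libraries (498 and 316, then 224, 119 and 227). The 19 tricarboxylic acid cycle genes had a median of -0.33, with Suclg1, a succinyl-CoA ligase subunit, at 185 and 139 and then 84.6, 106 and 94.4 FPKM called by DESeq2 (adjusted p = 0.00743), and Idh3g, of isocitrate dehydrogenase, at 153 and 168 and then 125, 108 and 92.3 FPKM not called (adjusted p = 0.0627).

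The 23 tested regulators of mitochondrial biogenesis had a median of -0.03, with 0 at an unadjusted p under 0.05 in either direction. In FPKM 6 of them had all null libraries above both BVE libraries, where 35.9% of all tested genes did, and 0 had them below. Of the factors of the motifs above, Nrf1 had 7.12 and 6.38 and then 7.52, 10.02 and 9.91 FPKM (log2 fold change -0.05) and Yy1 8.68 and 6.10 and then 13.9, 40.4 and 24.5 FPKM (log2 fold change 1.23 ± 0.56 SE, edgeR adjusted p = 0.292). Of the GABP subunits, Gabpb1, the most abundant, had 13.4 and 7.21 and then 11.3, 16.8 and 30.4 FPKM and overlapped (log2 fold change 0.62, adjusted p = 0.541 by edgeR). Gabpa had 1.84 and 1.01 and then 1.88, 7.01 and 6.49 FPKM (log2 fold change 1.25, adjusted p = 0.359 by edgeR) and Gabpb2 0.44 and 0.33 and then 0.6, 2.22 and 1.03 FPKM (log2 fold change 1.12, adjusted p = 0.436 by edgeR). Nrf1, Yy1, Gabpa and Gabpb2 are among the 6, and the values of Gabpa and Gabpb2 turned below 0 with the length and GC offset. The low genes with the largest folds, Esrrb and Perm1, did not exceed 1.95 and 0.2 FPKM. Ucp2, the uncoupling protein tested, had 48.7 and 38.8 and then 83.9, 4.68 and 31.5 FPKM, highest in null 1 and lowest in null 2.

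Markers of other cell states differed strongly between lines beside these results. The summed FPKM of 9 epithelial markers was 1098 and 1774 in the BVE libraries and 13375, 706 and 1420.2 in the null libraries, and 3 keratins made up most of them. Krt7 had 79.7 and 124 and then 5131, 111 and 461 FPKM, the highest of the list in null 1 and null 3. Krt8 had 634 and 1104 and then 1798, 230.5 and 201 FPKM, the highest in BVE 1 and BVE 2, and Krt18 321 and 457 and then 2605, 346 and 367 FPKM, the highest in null 2. Cdh1, E-cadherin, had 1.94 and 1.62 and then 136, 0 and 20.9 FPKM, and it and Epcam, the epithelial cell adhesion molecule, were not listed in null 2, while Krt19 had 31.4 and 51.1 and then 2244, 17.8 and 93.7 FPKM. Null 1, the library with Cox6b2, was thus the highest for each of these 4 keratins. The sum of 9 fibroblast markers was 290.0 and 255 and then 1.70, 148 and 1413 FPKM, led by Col1a1 at 161 and 118 and then 1.11, 104 and 570.5 FPKM, with Postn and Thy1 at 102 and 88.5 FPKM in null 3 and at most 0.13 and 0.24 FPKM elsewhere. Immune markers summed to 6.86 and 14.9 and then 60.1, 1.05 and 40.3 FPKM, nearly all Cd68 (6.09 and 14.2 and then 59.8, 1.00 and 39.9 FPKM), with Cd79a at most 0.77 FPKM and Ptprc, the pan-leukocyte marker, not listed. Endothelial markers summed to at most 0.68 FPKM (led by Kdr) and brown fat markers to at most 0.43 FPKM (led by Cidea). The part of cell state, passage or TSH in the subunit values was not tested, and in bulk RNA fewer cells of a kind and less RNA per cell cannot be told apart.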

How the data were processed

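RNA of 5 cultures (2 BVE, 3 BVE-Ctnnb1null) was made into TruSeq libraries and sequenced by the authors. The authors deposited, for each RefSeq transcript, an estimated count, which can hold fractions of reads. Beside it they deposited FPKM, the fragments per length of transcript and per size of library, and listed no row under 0.01 FPKM. The aligner, counting program and genome build are not given in the sources used here, nor is strand, so overlapping and antisense genes may share reads. Estimated counts and FPKM were summed per NCBI gene, and counts were rounded to whole numbers. Of the genes, 17866 matched a symbol and 57 did not. Totals ran from 29360002 to 30713079 counts per library, and 77 members had at least 100 counts in every library.

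Genotypes were compared with edgeR 4.0.16 (R 4.3.3; quasi-likelihood test, TMM, filterByExpr, no covariates) on all 5 libraries, with Benjamini-Hochberg adjustment over the 13240 genes tested and a threshold of 0.05. SE is that of the fitted log2 fold change, taken as its size over the square root of the F statistic. Log2 ratios of single libraries used TMM-scaled CPM plus 0.5, with a 2-fold limit and no test. DESeq2 1.42.0, limma 3.58.1 on log2(FPKM + 0.1), library totals alone, other filters, each library left out and a replicate block were alternatives, and offsets from a loess curve (span 0.3) on length, or length and GC, were added after seeing the data. GC content was known for 13057 genes. The scripts were tested on simulated data.

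The members and all lists were chosen with earlier results of these data known. Named were the most abundant member per complex, members with an adjusted p under 0.05 or a log2 fold change of 1 or more in size, isoform pairs, c-ring genes, the 5 largest changes without overlap at 10 FPKM or more, the core complex I and Sdh genes, the top 2 genes per other list and per single-library contrast, and Ctnnb1. Cox5a, Cox6c, Uqcrfs1, Uqcr10, Atp5c1, Atp5d, Atp5pb, Atp5j, Atp5md, Ndufa6, Ndufc2, Nrf1, Yy1, Gabpa, Gabpb1, Gabpb2, Krt7, Krt8, Krt18, Col1a1, Nkx2-1 and Epcam were added after their values were seen. Intervals and floors cover counting error only. Single values of some genes that the naming rule selects are not reported here.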

Additional observations from a re-analysis of the deposited data

Results flagged for a closer look

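Ndufs5-ps, the pseudogene left out by name, held a signal outside the main measurement: 1838.5 estimated counts in null 3, against 42.25 and 216.24 in BVE 1 and BVE 2 and 0 in null 1 and null 2. In FPKM it had 131.78 in null 3, above the 59.8 FPKM of Ndufs5 itself in that library. How reads were divided between the gene and the pseudogene was not tested.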

How the results depend on the processing

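The member median stayed below 0 under all 16 alternatives. It was -0.27 with library totals alone, -0.33 with limma on FPKM under pseudocounts of 0.1, 0.01 and 1, -0.14 with the length offset, -0.13 with length and GC, and -1.02 to -0.75 when each library was left out. Members lower at an unadjusted p under 0.05 numbered 21 in the reported fit (background 6.07%), 4 with library totals alone (background 2.09%), 7, 7 and 6 with limma (0.1, 0.01, 1; backgrounds 2.79%, 2.65% and 2.83%), 4 and 5 with the offsets (length, length and GC; backgrounds 5.69% and 6.89%), and 3 to 34 with each library left out (backgrounds 2.02% to 11.5%). Without either BVE library the lone one left was assumed to vary like the null libraries. Members higher numbered 1 with library totals alone, no count filter and either offset, and 0 to 1 with each library left out, against 0 (backgrounds 22.2%, 9.69%, 7.36%, 7.99%, 2.20% to 16.1%, and 12.4%). DESeq2 called 1113 genes higher and 487 lower, 14 members among the latter, where edgeR called 0. The edgeR fit called 4 genes lower with no filter and 1 with at least 10 counts in every library, and limma called 1 higher and 5, 3 and 7 lower (0.1, 0.01, 1). Members without overlap on the lower side numbered 22 in FPKM (background 7.22%) and 22 in CPM from library totals (background 7.42%), against 47 with TMM (background 17.3%). The ratio of the FPKM shares was 0.916 with the 10 most abundant genes taken out of the total. The cause of these shifts was not tested.

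The labels do not pair libraries of the same number, although BVE 1 and null 1 are both labelled as without TSH. Deviations from the group mean had an r of -0.11 between libraries of number 1 and -0.11 between those of number 2. With 2 BVE libraries these deviations are mirror images of each other. The 2 values are thus not separate checks and cannot decide whether libraries pair. With a replicate block, 5 members were lower at an unadjusted p under 0.05 (background 4.15%), 0 genes were called, and the median was -0.95.

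Of 1476 values of 94 named genes, 1355 kept direction and side of the threshold, 22 passed it with DESeq2 alone and 99 changed sign. With DESeq2, the sign changed for Col1a1 (-0.029), Ndufa4 (-0.042) and Ndufa6 (-0.057). With library totals alone, the sign changed for Atp5g3 (0.32), Atp5pb (0.54), Cox5a (0.046), Ndufv2 (0.11), Nkx2-1 (0.30), Nrf1 (0.53), Sdhc (0.025), Sdhd (0.33) and Uqcr10 (0.11). Without a filter, the sign changed for Ndufa4 (-0.0073) and Ndufa6 (-0.017). With the filter of 10 counts, the sign changed for Ndufa4 (-0.011) and Ndufa6 (-0.016). With limma and a pseudocount of 0.1, the sign changed for Atp5g3 (0.33), Atp5pb (0.38), Col1a1 (-1.73), Cox5a (0.056), Ndufv2 (0.061), Nrf1 (0.42), Sdhc (0.026) and Sdhd (0.20). With limma and 0.01, the sign changed for Atp5g3 (0.33), Atp5pb (0.38), Col1a1 (-1.77), Cox5a (0.056), Epcam (-0.10), Ndufv2 (0.061), Nrf1 (0.43), Sdhc (0.026) and Sdhd (0.20). With limma and 1, the sign changed for Atp5g3 (0.33), Atp5pb (0.38), Col1a1 (-1.47), Cox5a (0.056), Ndufv2 (0.061), Nrf1 (0.38), Sdhc (0.025) and Sdhd (0.20). With the replicate block, the sign changed for Atp5j (-0.21), Cd68 (-0.77), Cdh1 (-0.45), Col1a1 (-4.23), Cox6c (-0.61), Epcam (-1.27), Ndufa4 (-0.31), Ndufa6 (-0.90), Nkx2-1 (0.066) and Thy1 (-1.10). With the length offset, the sign changed for Atp5g3 (0.51), Atp5k (0.11), Atp5pb (0.39), Col1a1 (-0.61), Cox5a (0.19), Cox6a1 (0.089), Cox6b1 (0.16), Cox7a2 (0.030), Cox8a (0.32), Gabpb2 (-0.38), Sdhd (0.24) and Uqcr10 (0.29). With the length and GC offset, the sign changed for Atp5g3 (0.64), Atp5k (0.34), Atp5pb (0.41), Col1a1 (-0.041), Cox5a (0.26), Cox6a1 (0.18), Cox6b1 (0.31), Cox7a2 (0.25), Cox8a (0.23), Gabpa (-0.12), Gabpb2 (-0.60), Ndufb2 (0.11), Nkx2-1 (0.18), Sdhc (0.020), Sdhd (0.29) and Uqcr10 (0.63). With each library left out in turn, the sign changed for Acta1 (-0.60 to 3.64, without BVE 1), Atp5g3 (-0.68 to 0.048, without BVE 2), Atp5j (-0.058 to 0.69, without null 2), Atp5pb (-0.33 to 0.24, without null 1), Col1a1 (-2.05 to 0.60, without BVE 2 or null 3), Cox6c (-0.46 to 1.09, without null 3), Krt18 (-0.82 to 1.33, without null 1), Krt19 (-0.28 to 4.21, without null 1), Ndufa4 (-0.27 to 0.31, without BVE 1 or null 2 or null 3), Ndufa4l2 (-2.02 to 1.21, without BVE 1), Ndufa6 (-0.92 to 0.34, without BVE 2 or null 3), Ndufc2 (-0.16 to 0.54, without BVE 2), Nkx2-1 (-1.95 to 0.22, without BVE 2 or null 3), Sdhd (-0.65 to 0.010, without null 1) and Thy1 (-1.04 to 7.29, without null 3), each with its range and the library whose absence changed it.

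Depth limited Cox4i2, Ndufa4l2, Cox6a2 and Cox6b2, which had under 10 counts in some libraries. The spread between libraries (common biological coefficient of variation 0.694) and lines that differ by passage limited the comparison of groups.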
